A study of Drosophila melanogaster with 3 samples.

Results

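The regions described here are 2042 calls from a peak list of a chromatin immunoprecipitation sequencing (ChIP-seq) experiment on whole white prepupae of Drosophila melanogaster. They were chosen by measured values. Each ranked below the cut described next and within the top 13000 by signal, in a list of 30000 calls made on the pooled replicates, and each overlapped, by at least 1 bp, 1 of the 13000 highest-signal calls in all 3 replicate lists. They are named recurrent calls in the text and make up 31.3% of the 6531 calls in that rank range. The other 4489, named non-recurrent, missed in at least 1 replicate. The calls above the cut are the optimal set that the authors thresholded by the irreproducible discovery rate (IDR). This IDR set was identical to the same number of highest-signal calls of the pooled list, so that all calls from the first one after it down to rank 13000 form the rank range examined. The signal is a value written by the authors' peak caller. Because rank, signal and overlap chose the recurrent calls, these quantities are given as descriptions with no test.

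The experiment had 1 group of 3 biological replicates. The animals were pooled males and females of a stable transgenic line carrying CG8632, named ZnT49B in the gene annotation, fused at its C-terminus to green fluorescent protein (GFP), and chromatin sonicated to a labelled range of 200 to 800 bp was recovered with an anti-GFP antibody. Whole animals were used, so a call cannot be assigned to a tissue. Control samples were not analysed here, and whether recovery at any call depended on the fusion protein was not tested.

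ZnT proteins are membrane transporters that move zinc out of the cytoplasm, and ZnT49B is named as a member of that family. An IDR analysis ranks the calls of replicate experiments and keeps those whose ranks are reproducible, so a call below its cut can be weak recurring signal or background. In the fly, the region around a transcription start site (TSS) is often open chromatin. It commonly holds short core promoter sequences such as the DNA replication-related element (DRE), the GAGA element and the TATA box.

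Sequences from 7 recurrent calls at protein-coding TSSs are shown because each is the highest-ranked such call, among those eligible for printing, that holds a given consensus sequence within 100 bp of its summit. They are RefSeq Release 6 (dm6) genome sequence, written 5′ to 3′ on the strand of the named gene, and bases of annotated untranslated regions were left out. Capitals mark the consensus match, which can lie on either strand. The letters searched were TATCGATA for the DRE, GAGAGAG for the GAGA element, TATAAAA for the TATA box, CAGGTAG for the Zelda type, AGGTCA for a hexamer shared by many nuclear receptors, the ecdysone receptor among them, and TGCACNC or TGCGCNC for the metal response element core. Ohler motifs 1 and 7 are named only. RpL27 holds a DRE, Nedd4 Ohler motif 1, CRAT Ohler motif 7, CrebB both a GAGA element and a metal response element core, PGRP-LA the TATA box letters, CG6136 a Zelda type match and cmet the AGGTCA hexamer. A match was counted at any distance from the TSS.
RpL27: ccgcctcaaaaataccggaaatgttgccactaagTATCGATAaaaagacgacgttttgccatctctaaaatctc
Nedd4: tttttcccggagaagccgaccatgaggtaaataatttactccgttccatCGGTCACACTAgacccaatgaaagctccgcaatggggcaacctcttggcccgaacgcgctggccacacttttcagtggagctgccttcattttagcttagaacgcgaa
CRAT: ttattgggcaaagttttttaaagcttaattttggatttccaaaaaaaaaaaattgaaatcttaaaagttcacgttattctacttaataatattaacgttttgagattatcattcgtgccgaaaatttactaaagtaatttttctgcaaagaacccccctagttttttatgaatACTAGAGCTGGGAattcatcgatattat
CrebB: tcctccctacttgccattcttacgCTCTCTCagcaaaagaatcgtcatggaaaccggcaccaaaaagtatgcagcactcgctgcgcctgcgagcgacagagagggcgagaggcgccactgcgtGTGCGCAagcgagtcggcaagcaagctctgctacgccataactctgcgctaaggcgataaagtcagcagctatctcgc
PGRP-LA: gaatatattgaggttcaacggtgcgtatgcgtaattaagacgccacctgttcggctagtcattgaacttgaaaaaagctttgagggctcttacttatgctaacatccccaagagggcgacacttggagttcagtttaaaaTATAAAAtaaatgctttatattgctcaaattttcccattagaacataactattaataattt
CG6136: cacctgggatcgtttcacCTACCTGgg
cmet: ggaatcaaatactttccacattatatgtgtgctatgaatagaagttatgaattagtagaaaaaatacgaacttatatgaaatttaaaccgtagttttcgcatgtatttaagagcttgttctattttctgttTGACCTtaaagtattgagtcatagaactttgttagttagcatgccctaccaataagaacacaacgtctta

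The RpL27 stretch is chr3R:25685052-25685125 on the minus strand, next to the start of a gene for a protein of the large ribosomal subunit. Its call ranked 6844 in the pooled list and 8797, 7201 and 4305 in replicates 1 to 3. The Nedd4 stretch, chr3L:17533349-17533505 on the plus strand, belongs to a ubiquitin ligase gene, and its call, at pooled rank 7907, ranked 6275, 2900 and 8852. This call overlapped an IDR interval. The other 6 did not. The CRAT stretch is chr3R:6374099-6374299 on the minus strand, at a carnitine acetyltransferase gene, and its call ranked 4544, 4309 and 8056.

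The CrebB stretch is chrX:18366045-18366245 on the plus strand, and its summit lay 212 bp upstream of a start of the gene for the cyclic AMP response element binding protein. CrebB was the second recurrent call by pooled signal. It ranked 8832, 5945 and 6798 in the replicates. The PGRP-LA stretch, chr3L:9333832-9334032 on the plus strand, lies at a gene of the peptidoglycan recognition protein family, and its call ranked 9819, 7468 and 5207. The summit of that call lay 400 bp upstream of the TSS, so the printed letters are not placed at the start itself. The CG6136 stretch, chr3R:15372213-15372239 on the minus strand, is 27 bases long after removal of untranslated bases, and its call, at ranks 9313, 10561 and 7600, also lay at a start of Ccm3. The cmet stretch, chr2L:11269175-11269375 on the minus strand, lies at a gene for a kinesin of the centromere, and its call ranked 6083, 7059 and 6463. Of these calls, those at RpL27, CRAT, PGRP-LA, CG6136 and cmet brought a gene that had no IDR summit at any of its starts.

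Recurrence fell with rank. Among IDR calls, 6080 (94.0%) met the same overlap rule and 389 did not, and among later calls the rule was met by 948 of the 17000 calls ranked after 13000 (5.58%). Within the rank range described here, 58.2% of the first 2031 calls after the IDR set were recurrent, then 27.3% of the next 2000 and 12.6% of the last 2500. The last IDR call, near lncRNA:CR44856 at chr2L:14574844-14575279, had a pooled signal of 104.80, and the first call below it, near lncRNA:CR45641 at chr3R:16217449-16217884, had 104.785. No step in signal therefore separated the recurrent calls from the IDR set. At the lower limit, the last recurrent call, by tRNA:Ile-TAT-1-1, had a signal of 55.9053, the call ranked 13000, at Chpf, had 55.8685, and the next call, at lilli, had 55.8683.

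**Figure D1:**
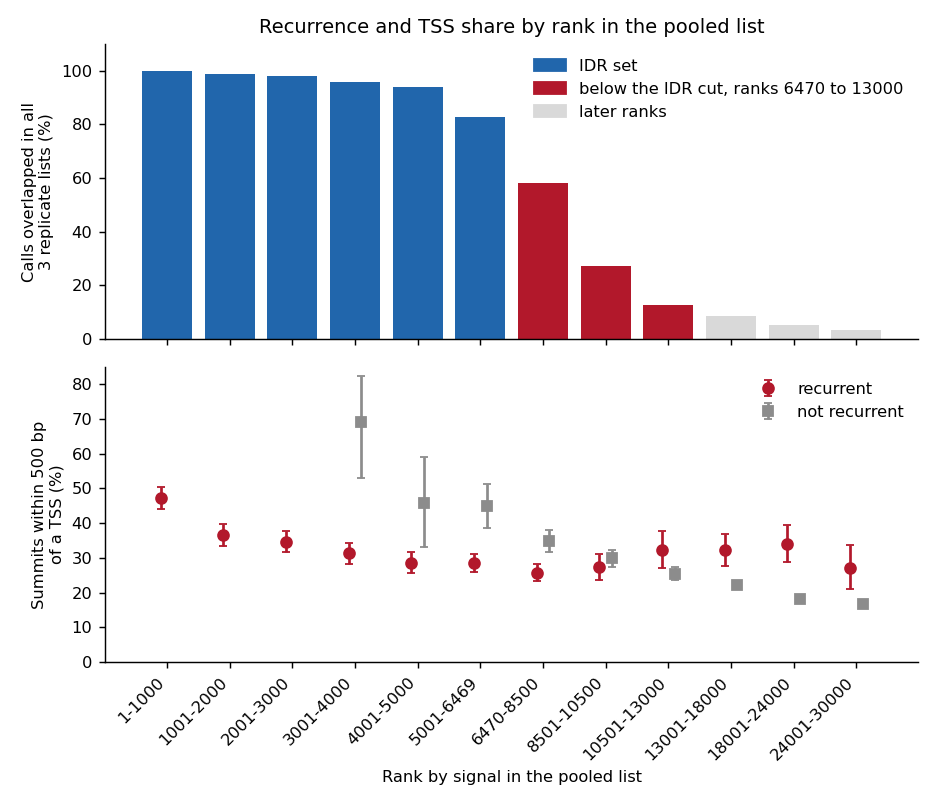
The upper panel plots the percentage of pooled calls overlapped in all 3 replicate lists, and the lower panel the percentage of summits within 500 bp of a TSS, by rank of signal in the pooled list. Points are recurrent (circles) and non-recurrent (squares) calls with exact 95% intervals, and bins of under 20 calls are not drawn. Recurrence falls from 99.8% in the first bin to 3.45% in the last, and the 2 TSS curves cross within the rank range examined.

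The 3 replicates did not contribute equally. Replicate 1 overlapped 4729 of the 6531 calls (72.4%), replicate 2 overlapped 3888 (59.5%) and replicate 3 overlapped 4631 (70.9%). Replicate 2 was thus the replicate in which a call most often missed. All 3 were overlapped for 2042 calls, 2 of them for 2778 (42.5%), 1 for 1566 (24.0%) and none for 145 (2.22%). The recurrent calls had a median pooled signal of 85.8 (range 55.9 to 104.8), against 68.4 for non-recurrent calls and 189.4 for the IDR set. The deposited −log10 q value had a median of 1.86 in recurrent calls, 1.24 in non-recurrent calls and 3.89 in the IDR set. The IDR median was also the highest value in that set, so it is a ceiling of the deposited values.

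The recurrent calls were of 2 kinds. Most of them, 1471 (72.0%), overlapped no IDR interval and are named standalone. The other 571 (28.0%) overlapped an IDR interval and are named shoulders. Only 48 of the 4489 non-recurrent calls (1.07%) overlapped an IDR interval. This contrast is largely fixed by the rule. Replicate calls that match an IDR call can overlap its shoulder too, and 94.0% of IDR calls met the rule. A shoulder's summit lay a median of 204 bp from the nearest IDR summit (range 199 to 374 bp, quartiles 201 and 213 bp). The median interval was 436 bp wide. A shoulder therefore covered the flank of an IDR call, and its signal was a median of 0.428 of that neighbour's (quartiles 0.286 and 0.562). The 571 shoulders had 570 distinct IDR neighbours, with a median pooled rank of 3511.5.

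**Figure D2:**
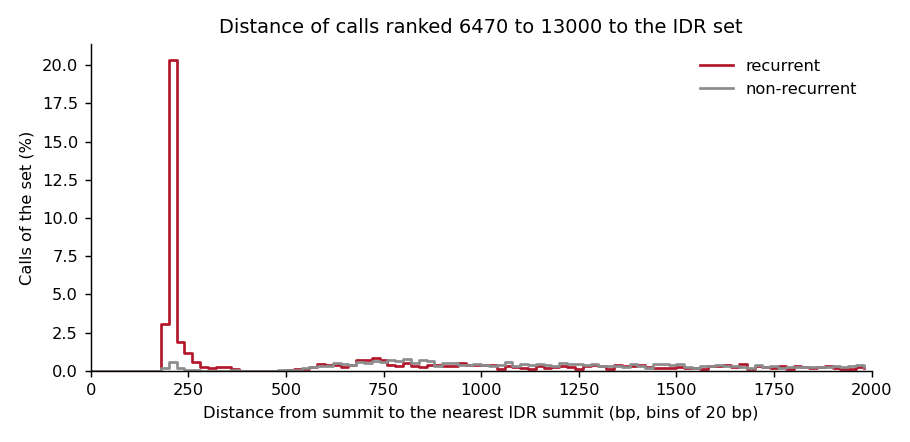
The percentage of recurrent and of non-recurrent calls is plotted against the distance in bp from the summit to the nearest IDR summit, in bins of 20 bp up to 2000 bp. Recurrent calls peak near 204 bp, the median of the shoulders, and beyond about 500 bp the 2 curves run at similar heights. The overlap rule favours that peak, because replicate calls of an IDR neighbour can overlap a shoulder.

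Few shoulders had a separate call in all 3 replicates. A matched replicate call was counted as a call's own when its summit did not lie nearer to an IDR summit than to the summit of the recurrent call. By that measure 57 of the 571 shoulders (9.98%) had their own call in all 3 replicates, against 1464 of the 1471 standalone calls (99.5%). Thus for 514 shoulders at least 1 of the 3 matches had its summit nearer to that of an IDR call. By replicate, 322 shoulders (56.4%), 248 (43.4%) and 283 (49.6%) had their own call. For standalone calls this count is nearly fixed by their choice, since IDR summits lay far from most of them. The 1471 standalone calls formed 1337 separate regions, so some of them lay together. The measure did not ask whether such calls shared a replicate call. Requiring the replicate summits to lie within 100 bp of the pooled summit left 893 of the 2042 recurrent calls. Results are given for standalone calls as well.

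Standalone calls were weak in each replicate as well as in the pool. The median signal of their matched calls was 31.8, 22.8 and 31.9 in replicates 1 to 3, and their median ranks were 9156, 7914 and 8858. Signal at rank 13000 of each list, the entry limit of the rule, was 22.9, 16.04 and 23.1. At the rank equal to the size of the IDR set it was 42.7, 26.7 and 41.0, so the median standalone match lay between the limit and the depth of the IDR set in every replicate. In all 3 replicates 762 standalone calls (51.8%) lay outside the top calls of that number, and 6 (0.408%) lay inside them. Among shoulders, 135 (23.6%) lay inside them in all 3. The scale of the signal between libraries is not given in the sources used here, so the lower values of replicate 2 cannot be read as weaker recovery.

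**Figure D3:**
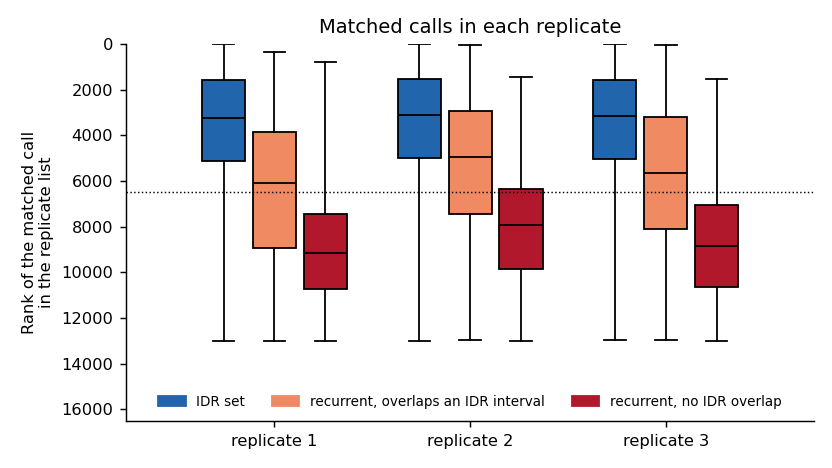
Boxes show the rank (median and quartiles, whiskers from lowest to highest; rank 1 at the top) of the matched call in each of the 3 replicate lists, for the IDR set, for recurrent calls that overlap an IDR interval and for those that overlap none. The dotted line is the rank equal to the size of the IDR set. Medians of the standalone calls lie at 9156, 7914 and 8858, below the line in every replicate.

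The 20 recurrent calls of highest pooled signal lay at TSSs, in gene bodies and in intergenic sequence. The first, at chr3R:16217449-16217884, lay 3228 bp from the nearest TSS, that of lncRNA:CR45641. Its matched signals were 23.5, 27.8 and 47.2 in replicates 1 to 3 (mean 32.8 ± 12.7, SD, n = 3), so replicate 3 was high and replicate 1 was close to the entry limit. At CrebB they were 32.7, 28.8 and 39.4 (33.6 ± 5.37, n = 3). In an intron of kirre, an immunoglobulin-family adhesion gene needed for myoblast fusion, they were 37.0, 17.4 and 40.0, with replicate 2 the low one.

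Several of the strongest calls were shoulders. In lncRNA:let7C, the primary transcript of let-7 and its neighbouring microRNAs, the summit lay 199 bp from an IDR summit, and the matched signals were 73.2, 18.4 and 69.6. In Bacc the summit lay 200 bp from an IDR summit, with 34.3, 91.5 and 139.3. In sick the distance was 201 bp, with 44.7, 37.5 and 176.0. In Bacc and sick the high values were those of replicates whose match was not the call's own, and in lncRNA:let7C this held for replicate 1 but not for replicate 3. Hs6st, a heparan sulfate sulfotransferase gene, and msi, which encodes the RNA-binding protein Musashi, also held shoulders, and the one at msi lay 161 bp upstream of a TSS.

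Of the other calls among the 20 strongest, those in ths, an FGF ligand gene, gce, a receptor gene for juvenile hormone, and rk, the receptor gene for the tanning hormone bursicon, were standalone and lay in gene bodies. The matched signals in rk were 30.7, 31.6 and 43.3, and those in gce, where the summit lay in 5′ UTR sequence, were 33.5, 19.8 and 42.9. Calls near lncRNA:CR44711, lncRNA:CR44276, tnc, CG13894 and CG9270 were intergenic, with summits 1260 to 7853 bp from the nearest TSS. The most even of all 20 was that near lncRNA:CR44711, with 34.7, 34.7 and 32.4 (33.9 ± 1.34, n = 3).

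Of the 20, 4 brought genes that had no IDR summit at a TSS. PGRP-LA had matched signals of 29.9, 23.8 and 48.7, and the nearest IDR summit was 39630 bp away. CG10366 and PCNA2, the latter a paralogue of the sliding clamp of DNA replication, shared 1 summit with 26.3, 32.0 and 44.5. CG9171 had 40.8, 27.0 and 31.9. Indy, a citrate transporter gene, had 27.2, 33.3 and 38.4, and its nearest IDR summit was 17853 bp away. Replicate 3 was the highest of the 3 values in each of these calls except that at CG9171.

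The 10 recurrent calls whose worst replicate rank was best were mostly matched by the calls of their IDR neighbours. They lay at Coq3 and Pld3, at Sk2 and scramb2, in Tlk, at CG10584 and Polr3E, in ATP7, at sdk, near lncRNA:CR44526, in Exn, near CG32447 and in Shrm. Of these genes, Coq3 acts in ubiquinone synthesis, Sk2 is a sphingosine kinase, Polr3E a subunit of RNA polymerase III, ATP7 a copper transporter and sdk an adhesion protein. Pooled ranks ran from 6978 to 12837, yet the call at Coq3 and Pld3, at pooled rank 8894, was matched at ranks 399, 387 and 263. All 10 summits lay 199 to 219 bp from an IDR summit, and 9 of the 10 overlapped the IDR interval. In 8 of the 10, no replicate held a call of the recurrent call's own. The exceptions were CG10584 with Polr3E, with an own call in replicate 1, and Exn, with own calls in replicates 1 and 3.

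Standalone calls that ranked within the size of the IDR set in every replicate were few. They lay near CG32447, where the matched calls were again those of the IDR neighbour 219 bp away, in sbb, near lncRNA:CR45541, near lncRNA:CR42755, in CG32264 and at CG14223. These 6 were named after their values were seen. CG14223, on X at pooled rank 7281, was the only one of the 6 at a TSS. It ranked 4797, 6363 and 4944, with matched signals of 55.5, 27.1 and 50.6 (44.4 ± 15.2, n = 3). It had no IDR summit at a TSS, and the nearest was 3604 bp away.

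Recurrent calls lay at TSSs less often than the IDR set as a whole did. A summit was counted at a TSS when an annotated transcript began no more than 500 bp away. This held for 554 of 2042 recurrent calls, 27.1% (exact 95% interval 25.2 to 29.1), against 35.2% (34.0 to 36.4) of the IDR set and 13.3% of the bases of the genome. The difference of −8.08 percentage points had an adjusted p of 1.25e-10 (two-sided Fisher exact test, Benjamini-Hochberg adjustment over 14 feature comparisons). The test takes calls as units and does not measure variation between animals. The 2042 recurrent calls formed 1904 separate regions and the IDR calls 6072, so the calls were not all separate sites. Within the IDR set the share fell with rank, and among IDR calls that met the same overlap rule it was 47.3% in the first 1000 ranks and 28.4% in the last 1469, the latter close to the value of the recurrent calls. At the summits of the matched calls in the replicates the share was 27.6% ± 0.204 (SD, n = 3), but these matches were part of the rule. The share was 24.3% in standalone calls (adjusted p = 3.85e-15 against the IDR set by the same Fisher exact test) and 34.5% in shoulders, whose IDR neighbours were at a TSS in 36.7% of cases. Asking for overlap in each replicate with only as many top calls as the IDR set holds left 393 calls, of which 34.9% were at a TSS, and the difference from the IDR set was then −0.354 points (p = 0.913, two-sided Fisher exact test). Shoulders and standalone calls were not counted apart in that set. By nearest match, 135 shoulders and 6 standalone calls lay within that depth in all 3 replicates. The value therefore cannot be read as one of standalone calls.

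Summits at a TSS lay a median of 107 bp upstream of it in recurrent calls, at −107 bp, against −131 bp in the IDR set and −42.5 bp in non-recurrent calls. Of the recurrent summits at a TSS, 71.5% were upstream of the nearest start, against 78.0% in the IDR set. At the other extreme, 528 recurrent calls (25.9%) lay over 5000 bp from any TSS, against 22.5% of IDR calls and 26.7% of non-recurrent calls.

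Introns held most recurrent summits, and coding exons almost none. Of the 2042, 1153 (56.5%) lay in introns, 667 (32.7%) between genes, 129 (6.32%) in 5′ UTR sequence, 46 (2.25%) in non-coding exons, 32 (1.57%) in 3′ UTR sequence and 15 (0.735%) in coding exons. Coding exons make up 16.7% of the genome and introns 42.3%. In the IDR set the corresponding shares were 56.1%, 34.3%, 5.39%, 2.52%, 1.30% and 0.433%, and none of these 6 differences passed the test (lowest adjusted p = 0.286, two-sided Fisher exact test). The differences, recurrent minus IDR, ran from −1.59 points between genes to 0.922 points in 5′ UTR sequence.

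**Figure D4:**
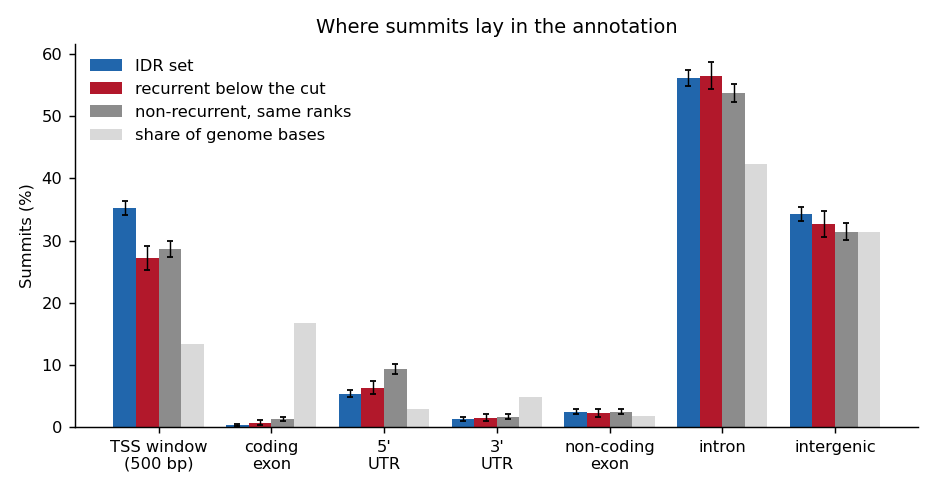
Bars give the percentage of summits in each annotation class for the IDR set, the recurrent calls and the non-recurrent calls of the same ranks, with exact 95% intervals, beside the share of genome bases. The TSS window overlaps the other classes, which exclude each other. Recurrent calls stand at 27.1% in the TSS window against 35.2% in the IDR set, and at 0.735% in coding exons against 16.7% of the genome.

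Against non-recurrent calls of the same ranks the difference in TSS share did not pass the test, and its direction depended on rank and on the replicate. It was 28.6% in non-recurrent calls, a difference of −1.52 points (adjusted p = 0.372, two-sided Fisher exact test). Standalone calls were 4.38 points lower than non-recurrent calls (adjusted p = 0.00516, same Fisher exact test). In the first 2031 calls after the IDR set the share was 25.7% in recurrent and 34.9% in non-recurrent calls, in the next 2000 it was 27.3% and 29.8%, and in the last 2500 it was 32.2% and 25.4%. The recurrent calls were thus lower at the top of the range and higher at its end. The make-up of the recurrent calls also changed, with 960 of 1182 standalone in the first of these ranges, 373 of 546 in the next and 138 of 314 in the last. In standalone calls alone the TSS shares were 23.6%, 24.1% and 29.0%. When recurrence was asked of replicates 1 and 3 alone, the difference turned to 7.34 points in favour of recurrent calls (p = 4.66e-11, two-sided Fisher exact test).

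The calls that missed in 1 replicate only, an alternative added after the data were seen, differed by replicate. Those missing only in replicate 2 numbered 1267, and 39.3% of them (exact 95% interval 36.6 to 42.1) were at a TSS. Those missing only in replicate 1 numbered 734, with 25.7% (22.6 to 29.1), and those missing only in replicate 3 numbered 777, with 20.7% (17.9 to 23.7). The share in 5′ UTR sequence was 15.5%, 7.22% and 3.73% in the same order. Replicate 2 also had a call of any rank at only 51.1% of the calls it alone missed, against 85.8% for replicate 1 and 82.5% for replicate 3. The part of this in the comparison with non-recurrent calls was not tested beyond leaving each replicate out. The 5′ UTR share of non-recurrent calls as a whole was 9.33%, above the 6.32% of recurrent calls (adjusted p = 0.000236) and the 5.10% of standalone calls (adjusted p = 7.62e-07, two-sided Fisher exact tests).

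The recurrent calls added few genes to those of the IDR set. A gene was counted as gained when a recurrent summit lay at any of its TSSs and no IDR summit lay at any of them. Of 13968 protein-coding genes, 315 were gained (2.26%), 298 of them by a standalone call (2.13%), beside 2373 with an IDR summit at a TSS (17%). The number gained depended on the rule, with 687 when recurrence was asked of replicates 1 and 3 alone, 170 with replicate summits within 100 bp, 125 at a replicate depth of 10000 and 16 at a depth equal to the IDR set. Of 4309 non-coding genes and pseudogenes, 59 were gained (1.37%), 51 by a standalone call (1.18%), beside 307 with an IDR summit (7.12%). Of the 554 recurrent calls at a TSS, 226 lay only at genes that already had an IDR summit and 328 brought at least 1 gained gene. In 105 calls the window held starts of 2 or more protein-coding genes, which share the call. The non-recurrent calls of the same ranks gained 1033 protein-coding genes, 996 of which had no recurrent call.

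Gained genes are described by lists of known role, each read against the background of 2.26% for protein-coding genes. A gene with an IDR summit could not be gained, so lists rich in such genes had fewer to gain. Counted over genes without an IDR summit only, the background was 2.72%. On that count the cytoplasmic ribosomal protein list had 5.71% gained, the ecdysone and Notch lists 14.3% each and the fat body list 13.3%. Translation factors (2.5%), oxidative phosphorylation (2.47%), cell cycle genes (2.56%) and all lists with no gained gene lay below that background. The lists were written with earlier results of these data known, and a count in a list is a description with no test. Among genes of protein synthesis, 2 of 91 genes in the cytoplasmic ribosomal protein list were gained, RpL27 and RpLP0-like, while 56 already had an IDR summit at a TSS. This list took genes by symbol, and RpLP0-like is in it by name only. The call at RpLP0-like lay 15 bp upstream of the TSS of 14-3-3zeta, which shares it. RpL27 had matched signals of 32.8, 24.5 and 56.7 (38.01 ± 16.7, n = 3), with replicate 3 high. Of 73 mitochondrial ribosomal protein genes 4 were gained, among them mRpS29, mRpS22 and mRpL11, beside 18 with an IDR summit. These named genes each shared the call with a neighbour whose TSS was nearer, rad50, CG5003 and HtrA2 in that order. Of 53 translation factor genes 1 was gained, eIF4H1, beside 13.

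In energy metabolism and organelles the lists described here gained 1 or 2 genes each. Oxidative phosphorylation gained 2 of 91 genes, ND-MNLL of complex I and COX7B of cytochrome c oxidase. ND-MNLL shared its call with CG45089 and p115, and COX7B with Sec3, whose TSS was nearer. Autophagy gained Atg5, which acts in lipid conjugation of Atg8, as 1 of 20, and the vacuolar ATPase gained Vha68-2 as 1 of 33. The call at Atg5 was shared with Dok, whose TSS was nearer. Fat body and lipid storage genes gained 2 of 21, apolpp, the apolipophorin precursor of the haemolymph, and Hsl, a hormone-sensitive lipase, and 6 others had an IDR summit. Hsl, whose window also held Ate1, had matched signals of 50.2, 18.4 and 33.3, and apolpp, next to Zyx on chromosome 4, had 24.0, 28.6 and 37.2.

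Zinc transporters and metallothioneins, the family of the tagged gene, gained 1 of 24 genes, and 3 had an IDR summit at a TSS. The gained gene was ZnT86D, itself a zinc transporter gene, with its summit 83 bp upstream of the TSS at chr3R:11214404-11214839. Its matched signals were 28.4, 22.9 and 44.8 (32.0 ± 11.4, n = 3) at ranks 10349, 7867 and 5792, so that replicate 3 alone ranked within the size of the IDR set. The tagged gene ZnT49B, on 2R, had no recurrent call at or near it. The nearest recurrent summit lay 49208 bp away at pooled rank 7258, while the nearest IDR summit lay 5624 bp away and the nearest non-recurrent summit 3994 bp away.

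Ecdysone, the steroid whose pulses start metamorphosis, has many known response genes. Of 36 such genes 3 were gained and 15 had an IDR summit. ImpL2, a secreted inhibitor of insulin-like peptides, had matched signals of 37.3, 31.9 and 30.4 (33.2 ± 3.64, n = 3), an even set. The call at kay, the fly Fos gene, had 25.6, 34.6 and 28.7. The call at Eip63E, a cyclin-dependent kinase gene, was a shoulder 202 bp from an IDR summit, and its values of 90.0, 20.4 and 127.7 followed the neighbour in replicates 1 and 3, where no own call was present. None of 21 nuclear receptor genes was gained, and 8 had an IDR summit.

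Signalling and patterning lists gained 0 to 3 genes each. The Notch pathway gained 2 of 26, E(spl)mbeta-HLH, a repressor gene that Notch activates, and dx, which encodes the ubiquitin ligase Deltex, beside 12 with an IDR summit. Single genes were gained in the Wnt pathway (lgs, a coactivator of Armadillo, 1 of 27), the Hedgehog pathway (ptc, the receptor, 1 of 18), the insulin and TOR pathway (Thor, an inhibitor of translation initiation, 1 of 29) and the Hippo pathway (kibra, an upstream activator, 1 of 20). At Thor the matched signals were 37.8, 26.3 and 37.4, and at ptc they were 32.2, 19.5 and 50.8. At kibra they were 26.03, 47.0 and 51.4, with replicate 1 the low one and replicates 2 and 3 at ranks 3309 and 4861. None was gained of 28 Dpp and activin pathway genes or of 25 EGFR and Ras pathway genes.

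Imaginal disc patterning genes gained 3 of 44, da, an E-protein gene, and the zinc finger genes tsh and tio. At da the signals were 30.6, 36.9 and 39.0, and at tsh they were 35.4, 26.7 and 23.8. Insulator and chromatin genes gained 2 of 34, pita, an insulator-binding zinc finger gene, and the gene of the heterochromatin protein HP1a, which shared its window with Ssb-c31a. Circadian clock genes gained cwo, a clock repressor, as 1 of 16, and cell cycle and DNA replication genes gained PCNA2 as 1 of 52. Every gained protein-coding gene named from these lists had a standalone call except Eip63E.

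No gene was gained in many lists, small and large. These were 33 aminoacyl-tRNA synthetase genes, 48 proteasome, 38 chaperone, 57 RNA polymerase and general transcription factor, 25 Mediator, 23 nuclear pore, 37 splicing, 15 peroxisome, 36 Rab, 20 cell death, 36 Hox, Polycomb and trithorax, 24 muscle and 26 neuronal genes. At the background of 2.26%, 0 is not a result for lists of this size. Cuticle protein genes (122) and odorant, gustatory and ionotropic receptor genes (179) were likewise not gained, and only 1 of each had an IDR summit. Of 34 male germline genes none was gained and 1 had an IDR summit. Among non-coding genes, read against 1.37%, 45 of 1945 long non-coding RNA genes were gained (2.31%), led by lncRNA:CR45364 and by lncRNA:CR42868 and lncRNA:CR45269, which share a call. Of 503 antisense RNA genes 6 were gained, led by asRNA:CR45108, asRNA:CR45969 and asRNA:CR46105. Only 3 of the 6 were gained by a standalone call. The call at asRNA:CR45108 was a shoulder with no own call in replicate 1, and those at asRNA:CR45969 and asRNA:CR46105 were standalone. Of 295 tRNA genes 2 were gained, tRNA:Pro-AGG-1-1 and tRNA:Ala-TGC-2-1, of 257 snoRNA genes 1, snoRNA:Me18S-U1356a, and of 260 microRNA genes none.

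**Figure D5:**
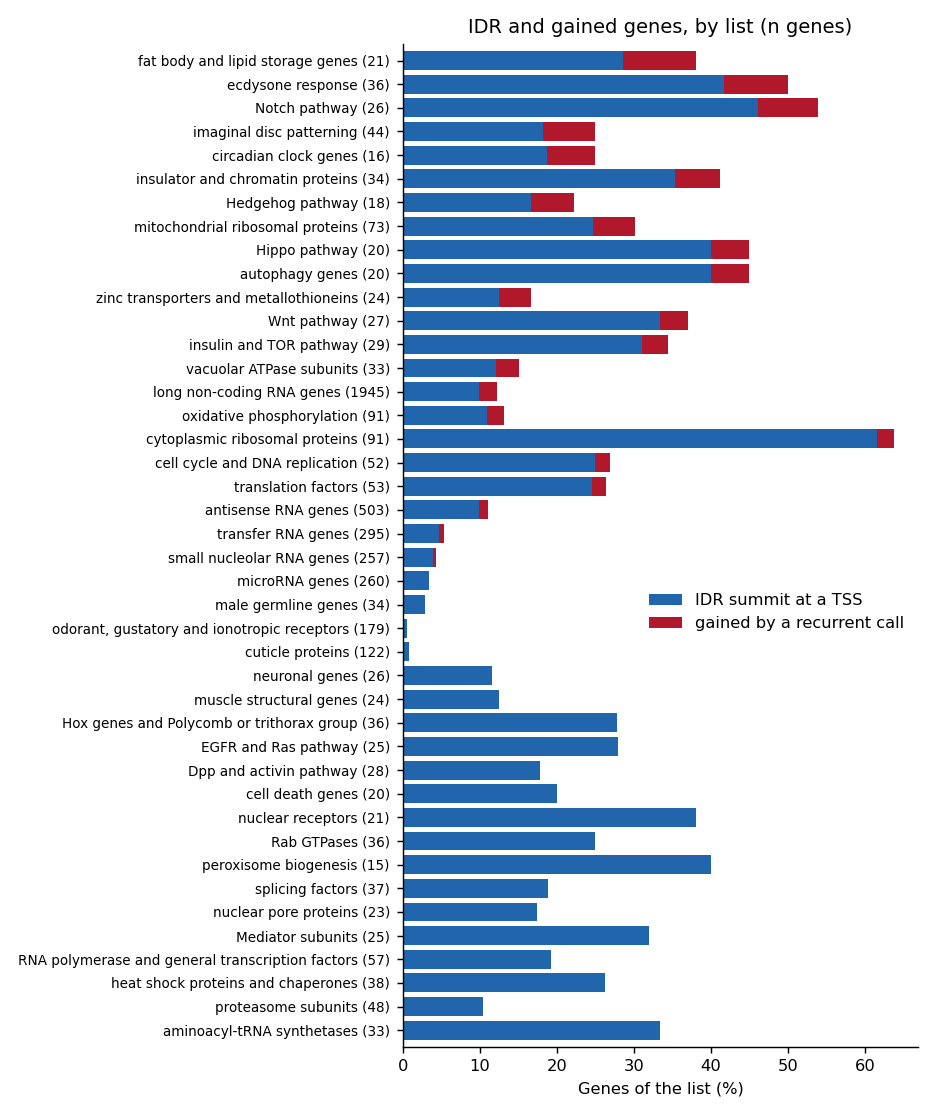
For each list (number of genes in parentheses), bars give the percentage of genes with an IDR summit within 500 bp of a TSS and, stacked on it, the percentage gained by a recurrent call. Gained shares run from 0 to 9.52% in fat body and lipid storage genes (2 of 21), and the cytoplasmic ribosomal protein list has 61.5% with an IDR summit and 2.20% gained.

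The 3 genes whose bodies held the most recurrent summits were Tet, bun and CG46467, all long genes that also held IDR summits. Tet, a gene of the family of DNA demethylases, held 9 recurrent summits in its 92.952 kb on 3L, 6 of them standalone, and 19 IDR summits. The gene bun, a leucine zipper regulator of growth, held 9 in 91.072 kb on 2L, 6 standalone, with 7 IDR summits. CG46467 held 7, all standalone, in 114.196 kb on 3R, with 7 IDR summits. Per megabase, recurrent calls were most frequent on X (17.8) and 3L (17.0), followed by 2L (15.6), 3R (13.8), 2R (13.1) and chromosome 4 (5.26, from 7 calls), and Y had 0. In the IDR set the values were 52.7 on X, 53.4 on 3L and 11.3 on chromosome 4. With pooled sexes, copies of X per cell differ between animals, and no correction was made.

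The median GC content around recurrent summits lay above that of the IDR set. In the 201 bp centred on the summit the median GC was 36.3% in recurrent calls, 33.3% in the IDR set (p = 1e-05, two-sided permutation test on the medians, the smallest p that 100000 resamples can give) and 37.3% in non-recurrent calls (p = 0.0185, same test). The last comparison turned with rank, with 35.3% in recurrent and 36.3% in non-recurrent calls among the first 2031 after the IDR set, 36.8% and 37.8% in the next 2000, and 40.3% and 37.8% in the last 2500. In the last of these ranges only 138 of the 314 recurrent calls were standalone, and GC by rank was not computed for standalone calls. The median GC was 40.3% in calls ranked after 13000 and 42.3% in 681615 windows tiled over the genome. Within the IDR set it also rose with rank. Among IDR calls that met the same overlap rule it was 31.8% in the first 1000 ranks and 34.8% in the last 1469. The latter was close to the 35.3% of the recurrent calls just below the cut. Shoulders had 39.8% and standalone calls 35.3%. At the matched summits in the replicates the median was 35.2% ± 0.287 (SD, n = 3). With overlap asked of only as many replicate calls as the IDR set holds, the median of the recurrent calls was 40.3%. That value equalled the median of the later calls and lay near the 39.8% of shoulders.

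Consensus sequences gave no difference that passed the test for recurrent calls as a whole. The TATA box letters were in 15.9% of the recurrent windows, 18.7% of IDR windows, 14.3% of non-recurrent windows and 9.27% of all windows of that length (adjusted p = 0.0584 against the IDR set, two-sided Fisher exact test, 16 tests, the lowest of them). The metal response element core was in 15.5%, 13.5%, 16.3% and 13.4% in the same order, and the GAGA element in 4.85%, 4.03%, 5.35% and 2.45%. In standalone calls the GAGA share was 3.399%, lower than in non-recurrent calls (adjusted p = 0.0335, same Fisher exact test). The DRE was in 1.03%, 1.33%, 1.05% and 0.568%, Ohler motif 1 in 0.441%, 0.433%, 0.423% and 0.110%, and Ohler motif 7 in 2.40%, 2.83%, 2.52% and 1.75%. The Zelda type was in 0.735%, 0.835%, 0.691% and 1.09%, and the AGGTCA hexamer in 3.04%, 4.11%, 3.23% and 5.45%, so that both were below the share of all windows in each of the 3 sets of calls. All windows had a median GC of 42.3%, above that of each set of calls, and were not matched for GC. The part of base composition in the differences from all windows was not tested. Windows at a TSS and the others were not tested against each other, and some shares rest on few windows. Within the recurrent calls the DRE was in 3.07% of windows at a TSS (17 windows) and in 0.269% of the others (4). The GAGA element was in 8.66% (48) and 3.43% (51). Ohler motif 1 was in 1.26% (7) and 0.134% (2), and Ohler motif 7 in 4.51% (25) and 1.61% (24). The TATA box letters were in 15.7% and 15.9%. The metal response element core was in 16.4% and 15.2%, the Zelda type in 0.903% and 0.672%, and the AGGTCA hexamer in 2.17% and 3.36%. The DRE of the RpL27 window printed above is 1 of 17 DRE windows at a TSS.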

How the data were processed

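The data were peak lists in narrowPeak format for 3 biological replicates, for the pooled replicates and for the IDR set, on builds dm6 and dm3. Column 7, the signal deposited by the authors, ranked the calls, and column 9, deposited by the authors as a −log10 q value, only described them. Per the deposited text listings, the relaxed lists hold peaks and background as IDR input. The sources used here do not give the peak caller, aligner, cut-offs or IDR threshold. The replicate lists held 30000, 29322 and 30000 calls. Read depth is unknown, the SD of signals over replicates may include differences in scale, and intervals cover counting error only.

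Overlaps, positions and tests were computed in Python 3.11.15 with numpy 2.4.6, scipy 1.17.1 and pandas 2.3.3 against the Ensembl release 115 annotation and the RefSeq Release 6 sequence, both of dm6, and were tested on simulated data. Coordinates are 1-based. A summit took 1 class, coding exon first, then 5′ and 3′ UTR, then non-coding exon, intron or intergenic. Intervals are exact Clopper-Pearson 95% intervals. Fisher exact tests were adjusted over 14 feature comparisons and 16 consensus comparisons, separately for all recurrent and for standalone calls, at a threshold of 0.05. Alternatives changed the overlap rule, the depth, the ranks, the windows, the replicates and the build.

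The recurrent calls, the 42 gene lists (34 names in them matched no gene) and the tests were chosen with earlier results of these data known. Genes are named for the 20 recurrent calls of highest pooled signal, the 10 whose worst replicate rank was best, the 3 gained genes of each list with the highest-ranked call, the 3 genes whose bodies hold most recurrent calls, the calls at the rank limits and the tagged gene, and the windows printed follow the consensus sequences.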

Additional observations from a re-analysis of the deposited data

How the results depend on the processing

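Requiring replicate summits within 100 bp left 893 recurrent calls, with 21.6% at a TSS, −7.60 points from the non-recurrent calls (p = 1.83e-06, two-sided Fisher exact tests here and below, unadjusted) and 170 gained protein-coding genes. A replicate depth equal to the IDR set left 393 calls, 34.9% at a TSS, 16 gained genes, −0.354 points from the IDR set (Fisher exact p = 0.913) and 7.11 points from the non-recurrent calls (p = 0.00312), the latter reversed. By nearest match, 135 shoulders and 6 standalone calls lay within that depth in all 3 replicates, so these values do not describe standalone calls. A depth of 10000 left 1031 calls and 125 gained genes. Pooled ranks to 10000 gave −6.43 points, and standalone calls 24.3% and −4.38 points, from the non-recurrent calls. TSS windows of 250 and 1000 bp gave shares of 18.3% and 38.5%.

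Dropping 1 replicate gave 2776 to 3309 calls, 25.4% to 31.8% at a TSS, 459 to 687 gained genes, a median GC of 36.3% to 37.3%, −9.85 to −3.42 points from the IDR set and −4.94 to 7.34 points from the non-recurrent calls. Without replicate 2 the values were 3309 calls, 31.8%, 687 genes and 7.34 points (Fisher exact p = 4.66e-11), and the sign reversed. Other than at a depth equal to the IDR set, the TSS share stayed below that of the IDR set, at p up to 0.000719, in each alternative for which it was computed, which leaves out dm3. The median GC was 40.3% at that depth and 38.7% (permutation p = 0.0173 against the IDR set) with 200 bp to either side. The cause of these shifts was not tested. On dm3, whose IDR set held 5986 calls, 2379 calls were recurrent down to rank 13000, and 2024 (31.0%) in the ranks used on dm6. No paired analysis was possible because there was 1 group. The pooled list could not be rebuilt without a replicate, so leaving 1 out changed only the overlap rule.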
